A study of Mus musculus with 6 samples.

Results

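The NR4A orphan nuclear receptors are Nr4a1 (also known as Nur77), Nr4a2 (Nurr1) and Nr4a3 (Nor1). They were taken as the rows of the expression matrix that carry these gene symbols, which gave 3 genes of the 39179 listed, each under 1 identifier. RNA had been sequenced from Ocy454, a mouse osteocytic cell line that is a single-cell subclone and therefore represents 1 clone. The cells were grown to confluency at 33 °C, moved to 37 °C for 14 days and then exposed for 4 h to vehicle (PBS with 25 mM HCl), 1 nM PTH 1-34 (the amino-terminal part of parathyroid hormone) or 0.5 µM YKL-05-093, a compound that inhibits the salt-inducible kinases (SIKs). Each condition had 2 libraries, and all cells had their medium replaced a day before collection. According to the methods, compounds for cell culture were kept as stocks in DMSO, and whether the vehicle of these libraries held DMSO is not given in the sources used here. YKL-05-093 also binds other kinases, SRC among them, so its libraries show the effect of the compound and not of SIK inhibition alone. The methods call the libraries experimental duplicates, without saying whether the 2 of a condition came from separate cultures, so the p-values measure only the spread between these libraries, which may be technical.

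NR4A proteins are transcription factors of the nuclear receptor superfamily for which no classical ligand is established, so their activity depends largely on how much of each protein is made. Their genes are immediate early genes that respond quickly to cAMP, in part through CREB bound near the start site, and they are known PTH-responsive genes in cells of the osteoblast lineage. SIKs phosphorylate the CREB coactivators of the CRTC family and the class IIa histone deacetylases, which repress MEF2, and cAMP signalling through protein kinase A inhibits SIKs.

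The sequences next to the start sites are shown because they carry the CREB-binding half-sites on which cAMP control of these genes is known to draw. All 3 genes matched the RefSeq start-site table for GRCm38.p6. The windows below are written 5′ to 3′ on the strand of the gene, and capitals mark each CGTCA or its reverse complement TGACG. For Nr4a1 the window is chr15:101266596-101266845 on the plus strand, which lies inside the gene's longest annotated extent and upstream of the RefSeq start used here. For Nr4a2 it is chr2:57124004-57124253, read on the minus strand, and for Nr4a3 it is chr4:48045055-48045152 on the plus strand, the 98 bases before the first annotated start.
Nr4a1: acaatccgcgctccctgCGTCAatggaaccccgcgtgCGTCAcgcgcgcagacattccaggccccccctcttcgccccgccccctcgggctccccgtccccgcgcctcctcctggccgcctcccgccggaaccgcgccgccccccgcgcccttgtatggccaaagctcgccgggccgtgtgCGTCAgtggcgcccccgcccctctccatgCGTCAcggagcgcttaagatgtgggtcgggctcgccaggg
Nr4a2: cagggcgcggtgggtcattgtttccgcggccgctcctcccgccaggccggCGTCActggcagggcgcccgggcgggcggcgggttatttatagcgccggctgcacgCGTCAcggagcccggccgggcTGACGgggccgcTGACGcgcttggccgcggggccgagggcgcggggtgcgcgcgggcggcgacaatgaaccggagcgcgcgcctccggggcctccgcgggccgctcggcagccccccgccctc
Nr4a3: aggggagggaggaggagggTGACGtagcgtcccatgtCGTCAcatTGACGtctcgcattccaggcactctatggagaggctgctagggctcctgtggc

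In the full 250 bases before the RefSeq start, each of the 3 genes held 4 half-sites, counted on both strands. For Nr4a3, 3 of the 4 fall in the stretch shown. Of all 32851 windows of that length in the table, 17.8% held at least 1 half-site and 0.137% held 4 or more. The half-site contains a CpG and these windows are rich in G and C (74.4% for Nr4a1 and 80.0% for Nr4a2), and the shares were not adjusted for base composition. The full palindrome TGACGTCA, which contains a half-site on each strand, occurred in none of the 3 windows and in 1.55% of all windows. The NBRE (AAAGGTCA), the site that an NR4A monomer binds, was likewise in none of them and in 1.34% of all. The CArG box of SRF was in none of the 3 and in 1.47% of all windows, and the MEF2 site was in the Nr4a2 window, 167 bases before the start, and in 2.92% of all. These matches describe letters in a fixed window and show no binding.

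The libraries held between 17505798 and 27983585 reads assigned to genes, recovered from the steps between the deposited RPKM values (reads scaled to the length of the gene and to the total reads of the library). The libraries of the vehicle differed more from each other than those of the treatments, with a median absolute log2 difference over tested genes of 0.333, against 0.108 for PTH and 0.103 for YKL-05-093. Of the osteocyte markers, Sost, Mepe and Fgf23 were at or near 0 in every library, whereas Dmp1 and Phex were low. Pdpn, another osteocyte marker, had 53.1 and 71.3 RPKM with vehicle, 170.5 and 162.9 with PTH, and 95.8 and 93.1 with YKL-05-093, and rose with PTH (1.44, adjusted p = 0.0148). Osteoblast-lineage genes such as Col1a1 and Alpl were abundant. Sp7, a transcription factor of that lineage, fell with PTH from 46.0 and 45.5 to 12.2 and 11.1 RPKM (-1.97, adjusted p = 0.00190), with 22.4 and 29.7 after YKL-05-093. Bglap (osteocalcin), of the same lineage, went the other way with PTH, from 6.61 and 11.5 to 27.1 and 25.3 RPKM (1.58, limma adjusted p = 0.0286). Runx2 had 19.5 and 13.0 RPKM with vehicle and 7.87 and 7.02 with PTH (-1.09, adjusted p = 0.0625) and was not called. Of the markers of other cell types, the 2 of muscle (Myod1 and Myog), Adipoq and Plin1 of adipocytes, Cdh5 of endothelium, Acan of cartilage and Ptprc of blood cells were at or near 0, and Pecam1 had 5 to 12 reads per library. Fabp4, also an adipocyte marker, had 1.08 to 2.27 RPKM and Cd68, a macrophage marker, 3.69 to 4.42. Of the other cartilage markers, Sox9 had 1.16 to 2.65 RPKM, and Col2a1 rose with PTH (1.30, adjusted p = 0.0148) from 0.625 and 0.577 to 1.71 and 1.54 RPKM. The calls of Pdpn, Sp7, Bglap and Col2a1 were lost without either PTH library. The part of these marker shifts in the NR4A results was not tested.

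Nr4a1 had the highest RPKM of the members in every library and rose with both treatments. In reads, not scaled to length, Nr4a2 exceeded it in both PTH libraries (563 and 464 against 525 and 459). Nr4a1 (ENSMUSG00000023034) spans chr15:101254269-101274795 on the plus strand. Its RPKM was 4.45 and 3.72 in the vehicle libraries, 9.85 and 9.76 in the PTH libraries, and 33.2 and 42.6 in those of YKL-05-093. These values rest on 192, 257, 525, 459, 1661 and 2180 reads in the same order. The 3 conditions did not overlap: both PTH libraries lay above both vehicle libraries, and both YKL-05-093 libraries lay above all others. The means were 4.08 ± 0.511, 9.80 ± 0.0666 and 37.9 ± 6.65 RPKM (SD, n = 2 each), which are 2.40 times the vehicle mean after PTH and 9.28 times after YKL-05-093.

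Nr4a2 rose with both treatments too, and its levels after PTH and after YKL-05-093 were closer to each other than those of Nr4a1. Nr4a2 (ENSMUSG00000026826) spans chr2:57106830-57124003 on the minus strand. Its RPKM was 0.819 and 1.05 with vehicle, 5.49 and 5.13 with PTH, and 7.26 and 8.62 with YKL-05-093, from 68, 140, 563, 464, 699 and 848 reads. The 2 vehicle libraries were far below the other 4, and the PTH libraries were below those of YKL-05-093 without overlap. The means were 0.937 ± 0.167, 5.31 ± 0.258 and 7.94 ± 0.957 RPKM (SD, n = 2 each), or 5.67 and 8.48 times vehicle.

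Nr4a3 was scarce with vehicle and with PTH and reached its highest level with YKL-05-093. Nr4a3 (ENSMUSG00000028341) spans chr4:48045153-48086447 on the plus strand. Its RPKM was 0.221 and 0.160 with vehicle, 0.215 and 0.268 with PTH, and 1.18 and 1.48 with YKL-05-093. The vehicle and PTH libraries overlapped, and both YKL-05-093 libraries stood above all 4 of them. Only 25 to 33 reads per library lay behind the lower values, against 154 and 199 after YKL-05-093, so the exact 95% Poisson interval of the first vehicle library alone ran from 0.143 to 0.326 RPKM. Such intervals cover counting error only. The means were 0.191 ± 0.0429, 0.241 ± 0.0374 and 1.33 ± 0.219 RPKM (SD, n = 2 each).

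**Figure D1:**
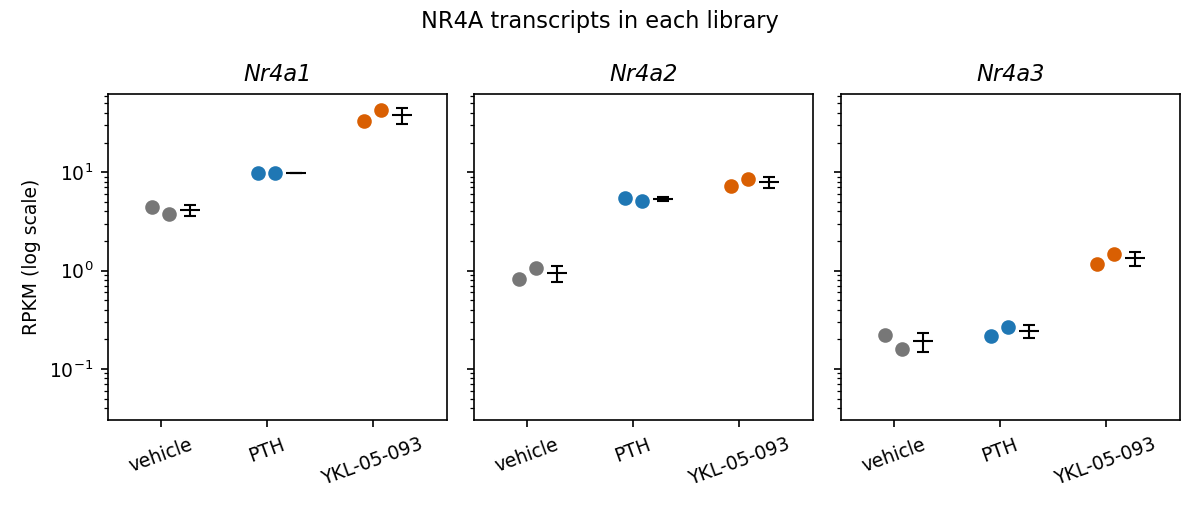
RPKM of Nr4a1, Nr4a2 and Nr4a3 on a log axis, with 1 coloured point per library, and the mean with its SD (n = 2) as a black bar beside each pair of points. The 3 conditions are separate for Nr4a1 and Nr4a2, whereas the vehicle and PTH points of Nr4a3 overlap between 0.160 and 0.268 RPKM and lie below those of YKL-05-093.

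The comparison of PTH with vehicle asked which transcripts differed after 4 h of the hormone, the only time sampled. Nr4a1 rose by 1.25 on the log2(RPKM + 0.1) scale (SE 0.168, 95% interval 0.86 to 1.64, limma adjusted p = 0.0131). Nr4a2 rose by 2.39 (SE 0.183, interval 1.96 to 2.82, adjusted p = 0.00168). For Nr4a3 the difference was 0.24 (SE 0.282, interval -0.43 to 0.90, adjusted p = 0.798), an interval that spans 0 and still includes rises of up to 0.90.

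A gene was called where the adjusted p was under 0.05 and the change more than 2-fold, which held for Nr4a1 and Nr4a2. By that rule 1.09% of all 14261 genes tested were called higher after PTH, 0.813% were called lower and 1.91% were called in either direction. Both PTH libraries were above both vehicle libraries for Nr4a1 and Nr4a2, a pattern found in 19.1% of all tested genes. When the 11882 genes that averaged 50 or more reads were ordered from the largest rise, Nr4a2 was number 18, Nr4a1 number 130 and Nr4a3 number 1815. Both calls were lost without the first and without the second PTH library. The differences were then 1.241 and 1.255 for Nr4a1, and 2.344 and 2.441 for Nr4a2. Such a fit takes its spread from the vehicle libraries alone. With no filter on low values limma called 0 genes, and 2342 had an unadjusted p under 0.05. The adjusted p was then 0.0867 for Nr4a1 and 0.0557 for Nr4a2.

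The comparison of YKL-05-093 with vehicle asked which transcripts the SIK inhibitor changes without the hormone. All 3 members were higher. Nr4a1 rose by 3.18 (SE 0.191, interval 2.73 to 3.63, adjusted p = 0.00229), and Nr4a2 by 2.96 (SE 0.192, interval 2.51 to 3.41, adjusted p = 0.00229). Nr4a3 rose by 2.30 (SE 0.235, interval 1.74 to 2.85, adjusted p = 0.0168).

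Of the 14255 genes tested for YKL-05-093, 0.393% were called higher and 0.666% in either direction. Nr4a3 passed the filter on low values (at least 0.5 RPKM in at least 2 libraries) through the YKL-05-093 libraries alone, so its presence among the tested genes already required it to be high there. Both YKL-05-093 libraries were above both vehicle libraries for each of the 3 genes, which held for 15.7% of all tested genes. By size of the rise, Nr4a1 was number 3, Nr4a2 number 4 and Nr4a3 number 11 of 11882. Nr4a3 reached the average of 50 reads for this order through the YKL-05-093 libraries as well. The call of Nr4a3 was lost without the first vehicle library (adjusted p = 0.0672), without the first YKL-05-093 library (0.0609) and with a pseudocount of 1 RPKM (a difference of 0.97, adjusted p = 0.0607), and also with no filter (0.153) and with the spread modelled on the mean RPKM (0.148). Those of Nr4a1 and Nr4a2 were lost with no filter (0.136 each), a setting in which limma called 0 genes and 1734 had an unadjusted p under 0.05.

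**Figure D2:**
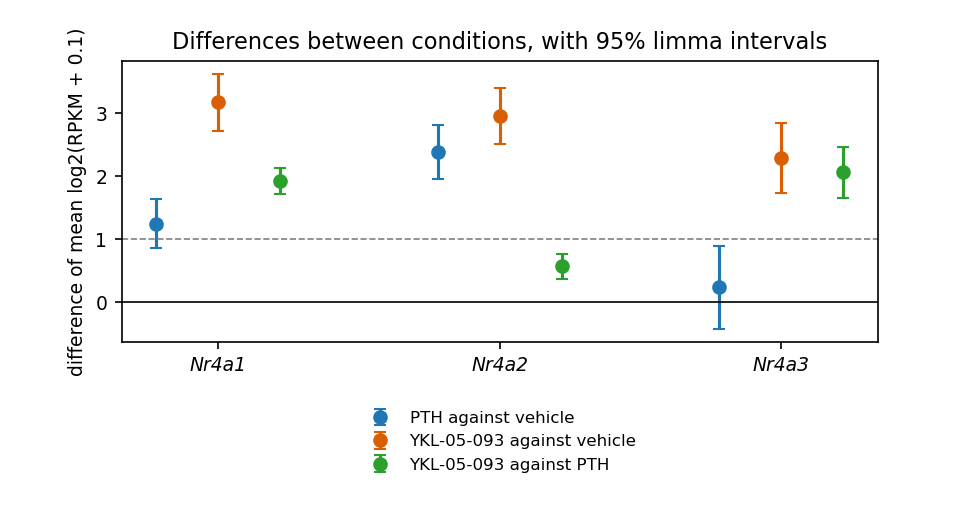
Differences of mean log2(RPKM + 0.1) for the 3 NR4A genes in the 3 comparisons, with 95% limma intervals; the dashed line marks a 2-fold difference. The PTH interval of Nr4a3 spans 0, and the difference of Nr4a2 between YKL-05-093 and PTH lies below the dashed line.

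Both treatments were set against the same 2 vehicle libraries, so those comparisons are not independent of each other. The direct comparison of PTH with YKL-05-093 uses no vehicle library and tests the difference between the treatments, at 1 dose of each and 1 time. Nr4a1 was higher after YKL-05-093 than after PTH by 1.93 (interval 1.73 to 2.13, adjusted p = 2.4e-09). Nr4a3 was higher by 2.06 (interval 1.65 to 2.47, adjusted p = 2.07e-06). It passed the filter on low values through the YKL-05-093 libraries alone, so its place in this test also required it to be high there. Nr4a2 was higher by 0.57 (interval 0.37 to 0.76, adjusted p = 0.000556), which is under 2-fold and was not called. By the adjusted p alone, without the limit of 2-fold, it passed with 9.98% of all tested genes. That p rose to 0.256 with 1 fit of all 6 libraries, 0.0601 with the spread modelled on the mean RPKM, 0.133 with no filter, 0.23 and 0.288 without the first and the second PTH library, and 0.121 without the second YKL-05-093 library.

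Genes called lower after PTH than after YKL-05-093, as Nr4a1 and Nr4a3 were, made up 0.470% of the 14255 tested, against 0.737% called higher and 1.21% in either direction. For all 3 members both PTH libraries were below both YKL-05-093 libraries, which held for 23.7% of tested genes. Nr4a3 was number 3, Nr4a1 number 6 and Nr4a2 number 249 in the order of the differences. Nr4a3 entered that order, with its limit of 50 reads on average, through the YKL-05-093 libraries. They held 154 and 199 of its reads, against 25 to 33 in each of the others. In this comparison the calls of Nr4a1 and Nr4a3 were lost without the first PTH library (adjusted p = 0.139 and 0.144) and without the second (0.127 and 0.133), where limma called 0 genes in all (2130 and 2021 had an unadjusted p under 0.05), and that of Nr4a3 also with a pseudocount of 1 RPKM, at a difference of 0.91 in the same direction. An exact permutation test of 2 against 2 libraries cannot give a two-sided p under 0.333, so no such test could pass the threshold for a single gene.

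Within each library the makeup of the family can be compared per length. The summed RPKM of the 3 genes was 5.49 and 4.94 with vehicle, 15.6 and 15.2 with PTH, and 41.6 and 52.7 with YKL-05-093. Nr4a1 made up 81.1% and 75.4% of that sum with vehicle, 63.3% and 64.4% with PTH, and 79.7% and 80.8% with YKL-05-093. The share of Nr4a2 was 14.9% and 21.4% with vehicle, 35.3% and 33.8% with PTH, and 17.5% and 16.4% with YKL-05-093. PTH therefore had the libraries with the lowest share of Nr4a1 and the highest share of Nr4a2, without overlap with either other condition.

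The ratio of Nr4a1 to Nr4a2 RPKM was 5.43 and 3.53 with vehicle, 1.79 and 1.90 with PTH, and 4.57 and 4.95 with YKL-05-093. Vehicle and YKL-05-093 overlapped, and both PTH libraries were below the other 4. The difference between conditions in this ratio was not tested. Its size depends on the gene lengths behind the RPKM: with the merged exon lengths of GENCODE M21, 3509 bases for Nr4a1 and 4059 for Nr4a2, in place of the 2467 and 4745 recovered from the deposited values, it was 3.27 and 2.12, 1.08 and 1.14, and 2.75 and 2.97. The order of the conditions does not depend on the lengths.

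**Figure D3:**
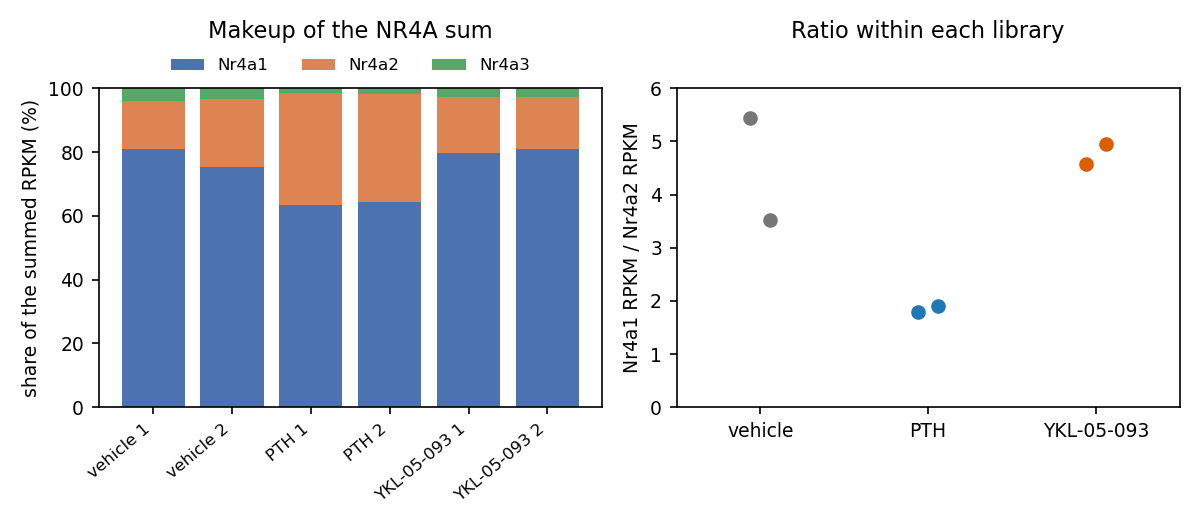
Left, the share of each NR4A gene in their summed RPKM per library, as stacked bars; right, the ratio of Nr4a1 to Nr4a2 RPKM, with 1 point per library. The PTH libraries hold 35.3% and 33.8% Nr4a2, and their ratios of 1.79 and 1.90 lie below the other 4 libraries.

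Among all tested genes, the mean RPKM of Nr4a1 exceeded that of 37.3% with vehicle, 60.6% with PTH and 88.1% with YKL-05-093. For Nr4a2 these shares were 12.4%, 44.5% and 55.2%. In bulk RNA, more RNA per cell and more cells that contain it cannot be told apart.

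Of the listed genes nearest to the 3 loci, those that passed the filter on low values were not called in any comparison. The others were not tested. No listed gene overlaps any member. BB557941, a non-coding transcript on the same strand as Nr4a2 at chr2:57127479-57181754, ends 3476 bases upstream of the annotated Nr4a2 start. Its RPKM was 0.679 and 1.18 with vehicle, 2.75 and 2.83 with PTH, and 2.93 and 3.35 with YKL-05-093, so both treatments lay above vehicle without overlap. Such a pattern held for 19.1% of all tested genes with PTH and 15.7% with YKL-05-093. The values rest on 13 and 36 reads with vehicle, 65 and 59 with PTH, and 65 and 76 with YKL-05-093. The differences of 1.54 for PTH (adjusted p = 0.0582) and 1.70 for YKL-05-093 (adjusted p = 0.0879) did not pass the threshold. The listed gene nearest to Nr4a1 was 9430023L20Rik, at 9477 bases. Its difference was 0.26 for PTH and 0.24 for YKL-05-093 (limma adjusted p = 0.678 and 0.842). Grasp lies 21513 bases from Nr4a1 on the other side, with a difference of 0.38 for PTH and 0.70 for YKL-05-093 (adjusted p = 0.369 and 0.161). Stx17 lies 38468 bases from Nr4a3 and had 13.3, 11.1, 10.6, 10.6, 10.5 and 10.7 RPKM across the libraries.

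The genes whose pattern over the 6 libraries was most like each member were ordered by the root mean square difference of their centred log2 values, over the 11966 genes that averaged 50 or more reads. Closest to Nr4a1 were Nr4a3 (0.46), Rgs2 (0.47), Kcnj2 (0.55), Nr4a2 (0.62) and Acsl3 (0.66). Closest to Nr4a2 were Kcne4 (0.24), Pde4b (0.30), Kcnk10 (0.36), Glis1 (0.39) and Mcam (0.40). For Nr4a3 they were Rhpn2 (0.44), Adamts1 (0.44), Nr4a1 (0.46), Bmf (0.46) and Dhrs3 (0.49). All genes share the same 6 libraries, and this order is a description.

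RXR proteins are the nuclear receptors with which Nr4a1 and Nr4a2 can form heterodimers. Rxra had 25.0 and 19.2 RPKM with vehicle, 19.0 and 17.8 with PTH, and 18.1 and 19.1 with YKL-05-093. Rxrb had 10.2 and 11.7, 14.1 and 13.2, and 13.0 and 13.3 in the same order. Neither passed the test in any comparison, and Rxrg was at or near 0 in every library.

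Of 46 nuclear receptor genes outside the NR4A family, which include the 3 RXR genes again, 21 passed the filter. Of these, 1 was called higher with each treatment against vehicle, beside 1.09% and 0.393% of all tested genes for PTH and YKL-05-093. That gene was Vdr, the vitamin D receptor, which had 4.41 and 3.31 RPKM with vehicle, 59.6 and 56.9 with PTH, and 54.7 and 54.9 with YKL-05-093. Its rise was 3.90 for PTH (adjusted p = 0.000463) and 3.81 for YKL-05-093 (adjusted p = 0.00121), and the direct difference, PTH minus YKL-05-093, was 0.09 (adjusted p = 0.518). None of the 21 was called between the treatments. Both calls of Vdr were lost only with no filter. For PTH a second gene, Pparg, the fat-cell receptor, was called lower without either vehicle library, with 1 fit of all 6 libraries and with a replicate block; it had 1.62 and 1.83 RPKM with vehicle and 0.562 and 0.770 with PTH (-1.26, adjusted p = 0.0587) and is named after its values were seen. The median log2 difference over the 21 was -0.17 for PTH and -0.11 for YKL-05-093, against -0.03 and -0.04 over all tested genes.

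The known route from PTH to the NR4A genes was read from the receptor Pth1r, the G protein and protein kinase A genes, CREB and its CRTC coactivators, the SIKs, class IIa histone deacetylases and MEF2 factors. Of their 21 identifiers 20 were tested, and PTH raised 2 and lowered 2, beside 1.09% and 0.813% of all tested genes. Both that rose belong to Hdac4, which is listed under 2 identifiers, with rises of 1.66 (adjusted p = 0.0174) and 1.72 (adjusted p = 0.0146). The genes that fell were Hdac9, a class IIa histone deacetylase, with 3.25 and 2.63 RPKM with vehicle and 0.504 and 0.571 with PTH (-2.25, adjusted p = 0.00258), and Mef2c, a MEF2 transcription factor, with 56.1 and 35.5 RPKM against 17.3 and 15.7 (-1.43, adjusted p = 0.0292). YKL-05-093 raised 1, Sik1, from 1.68 and 1.22 to 4.31 and 4.14 RPKM (1.50, adjusted p = 0.0318). The 4 identifiers called for PTH went the same way with YKL-05-093 but were not called. Their differences were 1.09 and 1.18 (Hdac4), -1.495 (Hdac9) and -0.61 (Mef2c), with limma adjusted p from 0.0581 to 0.538. None was called between the treatments, at the limit of 2-fold. By the adjusted p alone these 4 passed (PTH minus YKL-05-093 0.57 and 0.54, -0.75 and -0.83 in that order). Others of the list passed too, beside 9.98% of all tested genes. Without either PTH library 0 of the 4 PTH calls remained, and the call of Sik1 was lost without the first vehicle library or either YKL-05-093 library. With the spread modelled on the mean RPKM 1 of the PTH calls remained, and for YKL-05-093 the count was 0 by that model and with a filter at 0.1 RPKM, 2 without the second vehicle library, and 4 with 1 fit of all 6 libraries or a replicate block.

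The other early response genes were read as those known to respond to cAMP and CREB, and those linked to SRF and ERK signalling. Of 13 identifiers tested in the cAMP list, PTH raised 6 and YKL-05-093 raised 7, beside 1.09% and 0.393% of all tested genes, and none was called lower with either. Pde4d, another cAMP phosphodiesterase, is listed under 2 identifiers and counts as 2 in both. Sik1, called with YKL-05-093, is also in the preceding list and counts in each. The median log2 difference was 0.82 for PTH and 1.04 for YKL-05-093. Fos, an AP-1 transcription factor, rose from 2.60 and 3.26 RPKM to 12.5 and 9.96 with PTH and to 7.96 and 9.26 with YKL-05-093. Pde4b, a cAMP phosphodiesterase, had 0.453 and 0.422 RPKM with vehicle, which is under the filter, 3.21 and 2.93 with PTH, and 3.00 and 2.89 with YKL-05-093. Rgs2, a regulator of G protein signalling, was like Nr4a1 and Nr4a3 called lower after PTH than after YKL-05-093. It had 6.15 and 6.06 RPKM against 12.4 and 12.3, a difference of -1.001 (interval -1.17 to -0.83, limma adjusted p = 3.37e-07). That is barely past the limit of 2-fold, and Rgs2 was the only one of its list called between the treatments. Without either PTH library 1 gene of the list was called for PTH, and for YKL-05-093 the count was 2 without its first library, 4 without its second or with a filter at 0.1 RPKM, and 0 with the spread modelled on the mean RPKM. The call of Rgs2 between the treatments was lost without either PTH library, without the first YKL-05-093 library, with a pseudocount of 1 RPKM and with 1 fit of all 6 libraries.

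None of the SRF and ERK-linked genes was called higher with either treatment. Of 11 tested, YKL-05-093 lowered 5, namely Egr1, Egr2, Dusp6, Spry4 and Etv5, beside 0.274% called lower among all tested genes. With PTH only Egr2 was called lower, beside 0.813% of all tested genes. Srf itself went from 17.9 and 16.1 RPKM with vehicle to 9.3 and 9.5 with PTH (-0.85, limma adjusted p = 0.0456). That is under 2-fold and was not called. The median log2 difference of the list was -0.14 for PTH and -0.96 for YKL-05-093. Dusp6, the ERK phosphatase, had 8.86 and 9.25 RPKM with vehicle, 7.46 and 8.84 with PTH, and 1.04 and 1.23 with YKL-05-093 (-2.90 for YKL-05-093, adjusted p = 0.00229). Egr1, an immediate early transcription factor, had 6.78 and 6.08, 3.12 and 4.40, and 0.873 and 1.56 RPKM (-2.36 for YKL-05-093, adjusted p = 0.0200). Between the treatments 7 of the 11 were called, all higher after PTH, beside 0.737% of all tested genes, where Nr4a1 and Nr4a3 were lower. For YKL-05-093, 1 gene was called without the first vehicle library and 3 without the first YKL-05-093 library, and 1 with the spread modelled on the mean RPKM. Between the treatments 0 were called without either PTH library and 3 with no filter. The call of Egr2 for PTH was lost without the second vehicle library or either PTH library, with a pseudocount of 1 RPKM, with no filter, with the spread modelled on the mean RPKM and with libraries centred on their median.

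**Figure D4:**
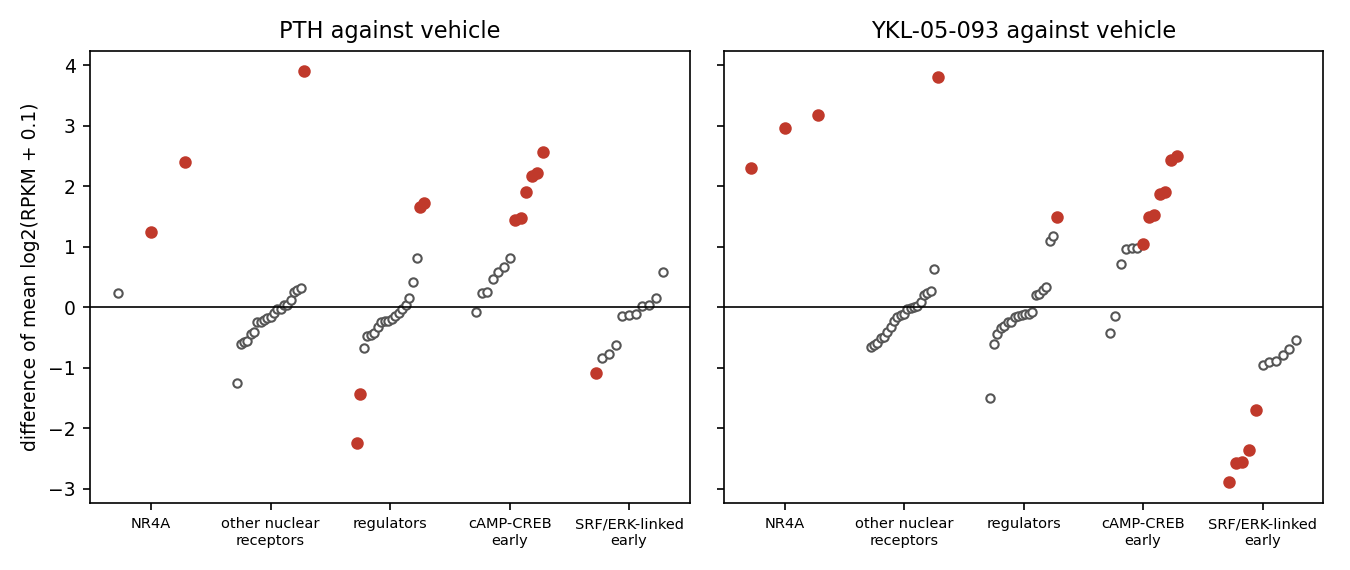
Difference of mean log2(RPKM + 0.1) from vehicle for each tested gene of the NR4A family and 4 gene lists, with called genes as filled red points and others open. With YKL-05-093 the 3 NR4A genes lie between 2.30 and 3.18, the highest other nuclear receptor is Vdr, and 5 of the 11 SRF and ERK-linked genes are called lower.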

How the data were processed

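RNA-seq libraries from Ocy454 cells (3 conditions, 2 libraries each) had been depleted of ribosomal RNA. The authors aligned reads with STAR to mm10 (CASAVA 1.7 is also named in the submitters' processing notes), counted them per gene with HTSeq on Ensembl release 75 and deposited RPKM values without a log or scaling between libraries. The series table was used, and the 6 tables of single libraries hold the same values. How gene length was taken, and whether counting used strand, are not given in the sources used here.

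Reads behind each RPKM were recovered as whole numbers (tolerance 1e-06) for all 26214 genes above 0. The floor of 3 reads equals 0.0536 to 0.0857 RPKM for a length of 2000 bases, and below it no change was detectable. Since the values are not counts, limma 3.58.1 (R 4.3.3) was run on log2(RPKM + 0.1) over 14264 genes that reached 0.5 RPKM in 2 or more libraries, each comparison with its own 4 libraries, the prior variance following the mean log2 of recovered reads plus 0.5, and Benjamini-Hochberg adjustment over all genes tested. Fold changes on this scale understate those of low genes. The fit and the read recovery were tested on simulated data.

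The members, the gene lists and the settings were chosen with earlier results of these data known, and the lists are from general knowledge. Named genes are the 3 members, up to 5 genes per list with the largest change among those called in at least 1 comparison, the RXR genes, the 5 genes closest in pattern to each member and the nearest listed neighbours. Positions are from GENCODE M21 (GRCm38), which holds 96.0% of the identifiers, and start-site windows are from RefSeq. Alternatives were other pseudocounts, filters, models of the spread, scalings and fits, voom on recovered reads, a replicate block and leaving out each library.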

Additional observations from a re-analysis of the deposited data

How the results depend on the processing

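Of the NR4A genes, PTH against vehicle called 2, YKL-05-093 against vehicle 3 and PTH against YKL-05-093 2. With no filter on low values these counts were 0 for PTH and 0 for YKL-05-093 against vehicle, and with a pseudocount of 1 RPKM 1 gene was called between the treatments. Leaving out 1 library at a time gave 0 to 2 called for PTH against vehicle, 2 to 3 for YKL-05-093 against vehicle and 0 to 2 for PTH against YKL-05-093. No difference of a member changed sign under any of its 16 alternatives, but many of these could not change it. Other filters, models of the spread, the joint fit, the replicate block and the adjusted p alone leave the difference as it is. Where the libraries of 2 conditions did not overlap, leaving 1 out or changing the pseudocount could not turn the sign either. The replicate numbers did not pair libraries across conditions (correlations of deviations -0.0336, -0.054 and -0.0494). With a replicate block 2, 3 and 2 members were called, and over all genes 441, 215 and 196 in place of 272, 95 and 172. For each treatment against vehicle the block thus moved the count by more than 1.5 times, in addition to the settings listed next. Over all genes, counts that moved by more than 1.5 times were, for PTH against vehicle, 160 with the spread set by the mean value, 0 without a filter and 14 to 671 without 1 library. For YKL-05-093 against vehicle they were 55 with a pseudocount of 1 RPKM, 57 with a filter at 0.1 RPKM, 6 with the spread on the mean value, 173 with 1 fit of all 6 libraries, 0 without a filter and 11 to 320 without 1 library. For PTH against YKL-05-093 they were 98 with a pseudocount of 1 RPKM, 102 with 1 fit, 1422 by adjusted p alone and 0 to 155 without 1 library. Of 56 calls among the listed genes, markers, neighbours and closest patterns, 49 were lost without a filter and 29 with the spread on the mean value, whereas voom on recovered reads kept 56. The causes were not tested.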

Other observations

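Among 12 genes reported elsewhere as NR4A targets, 5 were expressed enough to be tested. PTH raised 1 of the 5, Bglap, beside 1.09% of all tested genes. For YKL-05-093 against vehicle 0 were called, beside 0.666% of all tested genes in either direction. Between the treatments 1 was called, Bglap again, beside 0.737% called higher after PTH. Bglap (osteocalcin, a bone matrix protein) had 6.61 and 11.5 RPKM with vehicle, 27.1 and 25.3 with PTH, and 11.9 and 11.4 with YKL-05-093. It rose with PTH by 1.58 (limma adjusted p = 0.0286), and the difference for YKL-05-093 was 0.41 (adjusted p = 0.797). PTH exceeded YKL-05-093 by 1.16 (adjusted p = 4.57e-06), the opposite order to that of Nr4a1 and Nr4a3. Bglap has near-identical copies next to it, so its reads could be split among them by the counting, and its call for PTH was lost without either PTH library, without a filter, with the spread on the mean value and with libraries centred on their median. The call between the treatments was lost without either PTH library and with 1 fit of all 6 libraries. Spp1 (osteopontin, another bone matrix protein) had 63.1 and 77.3 RPKM with vehicle, 90.8 and 75.8 with PTH, and 61.5 and 66.9 with YKL-05-093, and was not called.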
